A study of Homo sapiens with 2 samples.

Results

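The account concerns 2 stretches of the human genome that carry abundant noncoding RNA genes, the neighbouring long noncoding RNA genes NEAT1 and MALAT1 on chromosome 11 and the microRNA gene MIR142 on chromosome 17. Members were all peaks of a UTX list and a TAL1 list with at least 1 base in the windows chr11:65150000-65310000 (160 kb, NEAT1 and MALAT1) or chr17:56350000-56450000 (100 kb, MIR142), in hg19. These gave 18 peaks of the 20074 in both lists, of which 16 belonged to the 17396 UTX peaks and 2 to the 2678 TAL1 peaks. The windows were chosen by the measured width of their UTX peaks and by whether these held a TAL1 peak, so the widths and the TAL1 contents below describe the loci and were not tested.

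UTX (KDM6A) was located by chromatin immunoprecipitation and sequencing in Jurkat, an established human line of T-ALL, an acute leukaemia of T cell precursors, which was not treated. The UTX group was 1 immunoprecipitation with a home-made antibody, 9838P, mixed with A302-374A. The other group, 1 mock immunoprecipitation with an isotype IgG, was not analysed here, so the level of the mock at these loci is not known. The TAL1 sites came from an earlier study and from no sample of this series, and their cells are not stated here. Neither list has replicates or gives a score, summit or read count. The depth is thus unknown, and width is the only measure of a peak's size.

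UTX demethylates lysine 27 of histone H3, whose trimethylation is a mark of repressed chromatin, and works within complexes that methylate lysine 4 of the same histone. TAL1 is a basic helix-loop-helix factor that binds the E-box, CANNTG, as a dimer with E proteins, and is switched on aberrantly in part of T-ALL. MALAT1 RNA stays in the nucleus and gathers in nuclear speckles, and NEAT1 RNA is the scaffold of paraspeckles, another kind of nuclear body. MIR142 is processed from the transcript of its host gene MIR142HG and its products are known as abundant microRNAs of blood cells.

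The mature products of MIR142 are shown because this locus combined wide UTX peaks with TAL1. Both are from RefSeq, 5′ to 3′, with the seed (bases 2 to 8) in capitals.
hsa-miR-142-5p: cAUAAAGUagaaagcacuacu
hsa-miR-142-3p: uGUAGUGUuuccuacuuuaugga
The 2 arms have different seeds and so form separate target families. The seed of the 5p arm was shared by 1 other mature microRNA in the RefSeq table, hsa-miR-5590-3p, and the seed of the 3p arm by 0 of the 2370 mature names in it.

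Start-site sequences of the loci, 250 bases before to 50 after each annotated start, are given to set the locus with TAL1 beside the locus without it. They are from RefSeq on GRCh38.p14, a build whose positions cannot be compared with the hg19 peaks, so whether a peak covers them was not tested. Capitals mark every match to CANNTG, which reads the same on both strands. The printed sequence of MIR142HG spans chr17:58332471-58332770 (minus strand), and those of MALAT1 span chr11:65497488-65497787 and chr11:65498795-65499094 (plus strand).
MIR142HG: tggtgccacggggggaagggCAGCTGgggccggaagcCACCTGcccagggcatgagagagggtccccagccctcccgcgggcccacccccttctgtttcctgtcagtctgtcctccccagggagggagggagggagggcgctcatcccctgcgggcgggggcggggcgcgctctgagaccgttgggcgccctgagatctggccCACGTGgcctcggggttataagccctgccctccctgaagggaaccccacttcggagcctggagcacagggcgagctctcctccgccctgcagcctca
MALAT1, start 1: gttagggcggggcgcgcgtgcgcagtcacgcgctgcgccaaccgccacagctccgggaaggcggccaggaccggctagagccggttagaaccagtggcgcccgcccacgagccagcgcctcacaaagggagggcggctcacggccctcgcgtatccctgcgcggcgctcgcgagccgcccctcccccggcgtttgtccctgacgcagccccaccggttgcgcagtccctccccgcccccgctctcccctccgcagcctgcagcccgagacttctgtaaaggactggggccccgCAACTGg
MALAT1, start 2: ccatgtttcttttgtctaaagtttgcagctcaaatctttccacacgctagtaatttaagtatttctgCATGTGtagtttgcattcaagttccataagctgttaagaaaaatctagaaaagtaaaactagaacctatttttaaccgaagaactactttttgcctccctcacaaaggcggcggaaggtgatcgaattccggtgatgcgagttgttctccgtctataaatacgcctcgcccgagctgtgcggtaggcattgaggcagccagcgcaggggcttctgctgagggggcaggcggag
The MIR142HG sequence held 3 matches to CANNTG, and each MALAT1 sequence held 1. The match of the first MALAT1 sequence lay 43 bases after the start. At least 1 match was present in 68.7% of the 35116 RefSeq start-site sequences of this length, and their median was 1 match. The share with 3 or more was not counted, so nothing is read from 3 matches against 1. None of the 3 printed sequences held the motif AGATAA of GATA factors (in 10.3% of all), the motif TGTGGT of RUNX factors (13.1%) or the motif AGGAAG of ETS factors (33.6%), searched on both strands. G and C made up 71.3% of the MIR142HG sequence, 73.7% of the first and 46% of the second MALAT1 sequence, against a median of 58.7% over the table. NEAT1 has no entry in this table.

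Gene positions were not taken from an hg19 annotation, so peaks are placed by the windows and by gene order alone. Genes of the RefSeq gene table (GRCh38.p14) were ordered by start position alone, so their order does not show which of them overlap. Along chromosome 11 NEAT1 starts before MALAT1, and MIR612, FAUP4, ENEMAL and LINC02736 have start positions between theirs. After MALAT1 come the start positions of its antisense gene TALAM1 and of MASCRNA, the small cytoplasmic RNA cut from the MALAT1 transcript. The start positions of MIR142HG and MIR142 come after those of TSPOAP1 and its antisense gene TSPOAP1-AS1 and before those of MIR4736, SUPT4H1 and RNF43. The rule names MALAT1 for wide UTX peaks without TAL1 but assigns no single peak to it. The widest UTX peak of the chromosome 11 window is called the MALAT1 peak here. By gene order, the upper group of peaks is called the MALAT1 side and the lower group the NEAT1 side. Which gene each peak overlies was not tested.

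The MALAT1 side of the chromosome 11 window carried a stretch of UTX peaks that was nearly continuous and held no TAL1 peak. Its 4 peaks, from 65264679 to 65275343, covered 90% of a span of 10.7 kb. The first measured 739 bases (65264679 to 65265417) and was followed after 343 bases by the widest, 5276 bases (65265761 to 65271036). A gap of 77 bases led to a peak of 2013 bases (65271114 to 65273126), and a gap of 648 bases to the last, of 1569 bases (65273775 to 65275343). Of the 17372 gaps between neighbouring UTX peaks on a chromosome, 1236 (7.11%) measured at most 1000 bases, which takes in all 3 of these gaps. Gaps of at most 500 bases numbered 831 (4.78%) and gaps of at most 100 bases 235 (1.35%), with a median over all gaps of 44.7 kb. The 5276-base peak was the widest of the 930 UTX peaks of chromosome 11, where the next measured 3669 bases.

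A second group of UTX peaks lay lower on chromosome 11, on the NEAT1 side of the window, and was more broken up. Its 5 peaks, from 65186075 to 65197826, covered 43.5% of a span of 11.8 kb, and none held TAL1. They measured 946 bases (65186075 to 65187020), 1336 bases (65189472 to 65190807), 470 bases (65193478 to 65193947), 2200 bases (65194005 to 65196204) and 159 bases (65197668 to 65197826). The 470-base and the 2200-base peak stood 57 bases apart, so that together they covered 97.9% of 2.73 kb. The widest of this group thus had less than the width of the MALAT1 peak, and ranked 51 in the UTX list, where the MALAT1 peak ranked 14. A gap of 47.0 kb separated this group from the next peak, of 439 bases (65244799 to 65245237), which stood alone between the groups.

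**Figure D1:**
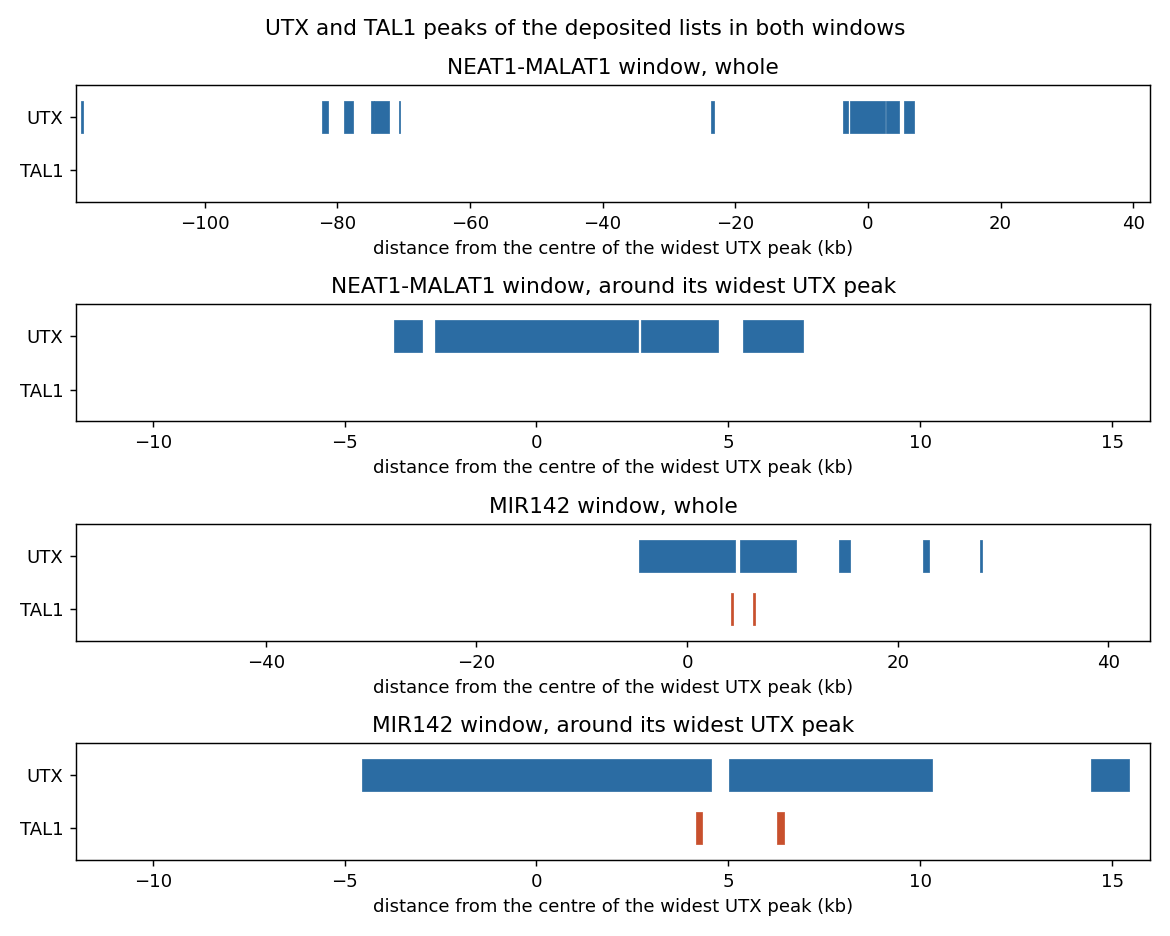
Peaks of the UTX list (blue) and of the TAL1 list (orange) in each window, whole and around its widest UTX peak, against the distance in kb from the centre of that peak; bars run from the start to the end of each peak. The chromosome 11 window shows 11 UTX peaks and 0 TAL1 peaks, and the MIR142 window 5 UTX peaks, of which the first 2 hold 1 TAL1 peak each.

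The MIR142 window held fewer UTX peaks, but its first 2 were wider than any in the NEAT1-MALAT1 window, the second by 14 bases, and each held 1 TAL1 peak. The first UTX peak measured 9085 bases (56402472 to 56411556) and the second, 479 bases further on, 5290 bases (56412036 to 56417325). Together they covered 96.8% of a span of 14.9 kb. The remaining 3 peaks became narrower with distance, from 1004 bases (56421463 to 56422466) to 601 bases (56429389 to 56429989) and 198 bases (56434783 to 56434980), and none of them held TAL1. The 2 wide peaks were also the widest of the 924 UTX peaks of chromosome 17, where the next measured 3403 bases.

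Both TAL1 peaks of the MIR142 window were short beside the UTX peaks that held them, and they faced each other across the gap between those peaks. The first, 177 bases from 56411162 to 56411338, lay 218 bases from the right edge of the 9085-base peak, with its centre at 96.6% of the peak's width from the left. The second, 189 bases from 56413284 to 56413472, lay 1248 bases from the left edge of the 5290-base peak, with its centre at 25.4% of the width. They filled 1.95% and 3.57% of the UTX peaks and stood 1945 bases apart, so most of the 14.9 kb of UTX lay outside the part bounded by TAL1. Their widths were above the TAL1 list's median of 147.5 bases, and the second lay just above its upper quartile of 188 bases. Their centres were 4236 and 1302.5 bases from the centres of the UTX peaks. The median was 44.5 bases over all 2163 TAL1 peaks in UTX and 2927 bases over the 16 in UTX peaks wider than 5 kb. Such offsets are limited by the distance from a UTX peak's centre to its edge, so they depend on width. As a share of that distance, the medians were 22.9% and 49.6%. Both sets include the 2 MIR142 peaks. Most of the 16 lay in a block of wide UTX peaks on chromosome 7, with 5 in 1 peak of 42536 bases.

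Across both windows the UTX peaks were mostly wide for their list. In the NEAT1-MALAT1 window 10 of 11 were wider than the list's median of 320 bases and 8 of 11 wider than its upper quartile of 457 bases. In the MIR142 window 4 of 5 were wider than both values. Peaks wider than 1 kb numbered 5 of 11 and 3 of 5, while they made up 2.15% of the UTX list; width entered the choice of the windows, so nothing is read from this difference. The median widths of the 2 sets were 946 and 1004 bases. The narrowest members, of 159 and 198 bases, were narrower than the list's lower quartile of 230 bases.

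**Figure D2:**
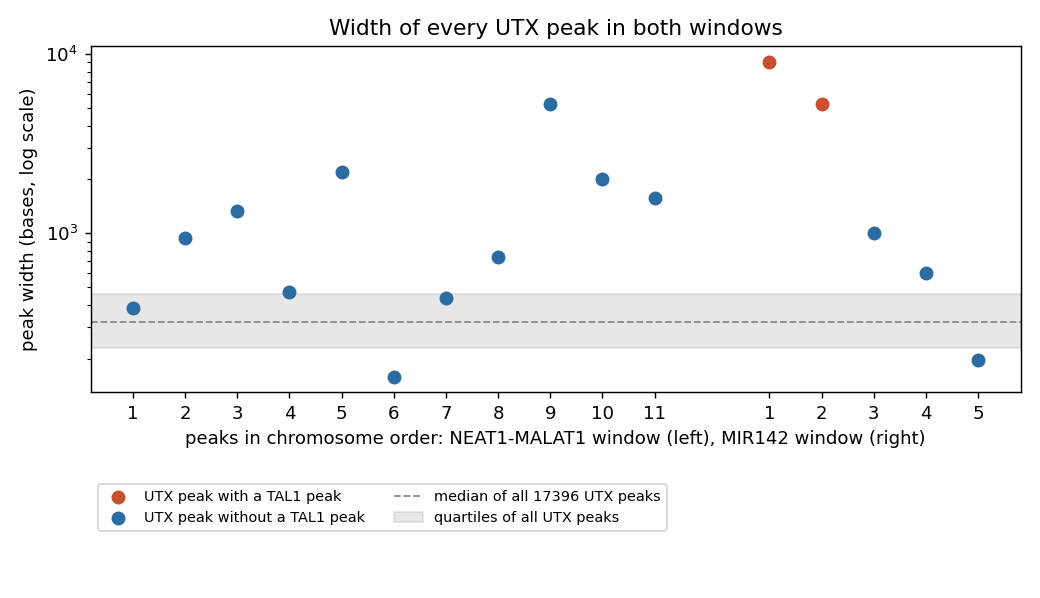
Width in bases (log axis) of the 11 UTX peaks of the NEAT1-MALAT1 window and the 5 of the MIR142 window, in chromosome order, with the median (320 bases) and quartiles (230 and 457) of all UTX peaks. The 2 peaks with TAL1, 9085 and 5290 bases, are the first of the MIR142 window; the peak of 5276 bases without TAL1 is the ninth of the other window.

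In bases covered, the windows were close although their peak counts were not. UTX peaks measured 15.5 kb in all in the NEAT1-MALAT1 window (9.54% of the window covered) and 16.2 kb in the MIR142 window (16.2%). The widest peak made up 34% of the covered bases in the former and 56.2% in the latter. When each chromosome was divided into adjoining tiles of 160 kb, 45 of 19106 tiles (0.236%) had 11 or more UTX peaks, and 5 (0.0262%) were covered by UTX at least as much as the NEAT1-MALAT1 window. Of those 5 tiles, 1 held no TAL1 peak, and it was the tile with the NEAT1-MALAT1 peaks themselves. The locus was thus counted against itself. With tiles shifted by 80 kb, which cut between these peaks, 0 of 4 lacked TAL1. Among 30560 tiles of 100 kb, 538 (1.76%) had 5 or more UTX peaks and 5 (0.0164%) were covered at least as much as the MIR142 window, of which 0 lacked TAL1. Tiles without peaks, assembly gaps included, are in these totals, and so are the tiles that cut through the windows or hold their peaks.

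In the NEAT1-MALAT1 window, 0 of 11 UTX peaks held TAL1, and in the MIR142 window 2 of 5 did, beside 12.1% of the UTX list. TAL1 content entered the choice of the windows, so nothing is read from these counts. Both TAL1 peaks of the MIR142 window lay in UTX peaks, as did 80.8% of the TAL1 list. Per 10 kb of UTX peaks, the MIR142 window had 1.24 TAL1 peaks, the whole UTX list 3.19 and its peaks wider than 5 kb 0.994.

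The direct comparison of a wide UTX peak with and without TAL1 can be made at nearly equal width. The second MIR142 peak (5290 bases, with TAL1) and the MALAT1 peak (5276 bases, without) were neighbours in the order of width, at ranks 13 and 14 of 17396, and the first MIR142 peak ranked 9. Of the 14 UTX peaks wider than 5 kb, 9 held TAL1 (64.3%, 95% exact binomial interval 35.1 to 87.2%), and 9 of the 14 lay in a block of wide peaks on chromosome 7. Without that block 3 of 5 held TAL1: both MIR142 peaks and a peak of 11426 bases at 128395072 to 128406497 on chromosome 2. The other peak without TAL1 was on chromosome 5, with 5800 bases at 137800875 to 137806674, and lay 183.3 kb from the nearest TAL1 peak. The next in width, ranks 15 to 40, held TAL1 at 2 of 26 peaks.

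**Figure D3:**
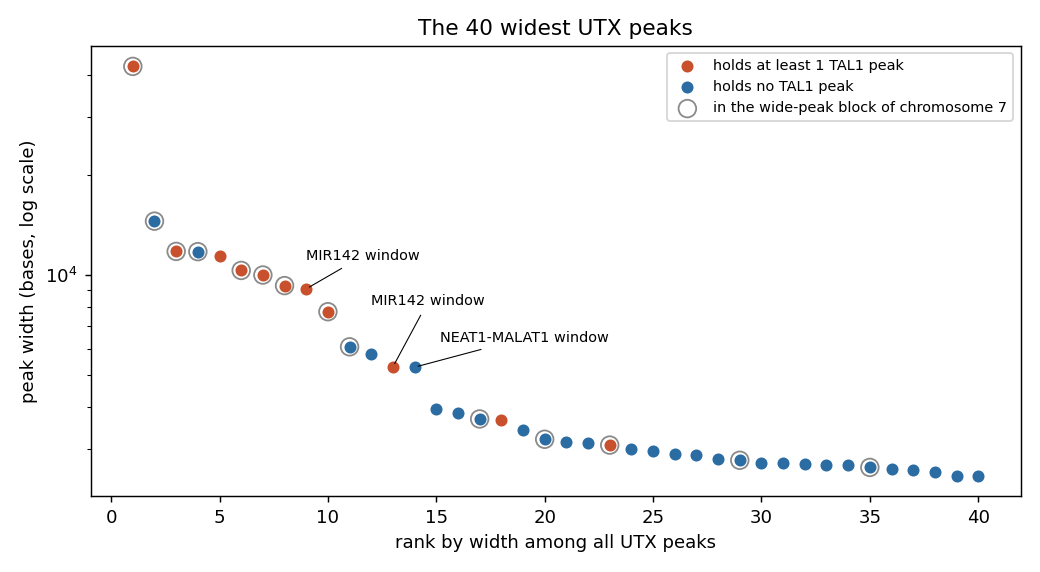
Width in bases (log axis) of the 40 widest UTX peaks against their rank, coloured by whether they hold TAL1; rings mark the chromosome 7 block and labels the peaks of both windows. Of ranks 1 to 14, 9 hold TAL1, and of ranks 15 to 40, 2 do; the labelled peaks at ranks 13 and 14 differ by 14 bases in width.

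Over the whole UTX list, the share of peaks touched by TAL1 was higher in some wider classes and lower in others, while TAL1 peaks per covered base were fewer in each class over 1 kb than in both classes up to 1 kb. TAL1 was held by 10.1% of the 13976 peaks of up to 500 bases (exact interval 9.60 to 10.6%), 20% of those over 500 bases and up to 1 kb (18.6 to 21.5%) and 22.1% of the 308 peaks over 1 and up to 2 kb (17.6 to 27.1%). Among the 52 peaks over 2 and up to 5 kb it was 5.77% (3 peaks, interval 1.21 to 15.9%), and without the chromosome 7 block 1 of 43 held TAL1 (2.33%). The 2200-base peak on the NEAT1 side and the 2013-base peak beside the widest MALAT1 peak belong to this class and are among its 49 members without TAL1. Of all 374 UTX peaks wider than 1 kb, 80 held TAL1 (21.4%). A longer peak can touch TAL1 more easily. Per 10 kb of UTX peaks, the 5 classes from narrow to wide had 3.46, 3.22, 2.18, 0.224 and 0.994 TAL1 peaks. With UTX peaks trimmed to 200 bases at their centre, the shares were 10%, 18.2%, 14%, 1.92% and 0%. The trim keeps a small part of a peak over 5 kb and a larger part of a short one. The 0% over 5 kb shows only that no TAL1 peak met the central 200 bases of such a peak. It does not tell where else in such peaks TAL1 lies. Intervals cover the counting of peaks only, neighbouring peaks are not independent, and no test was made between the classes.

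**Figure D4:**
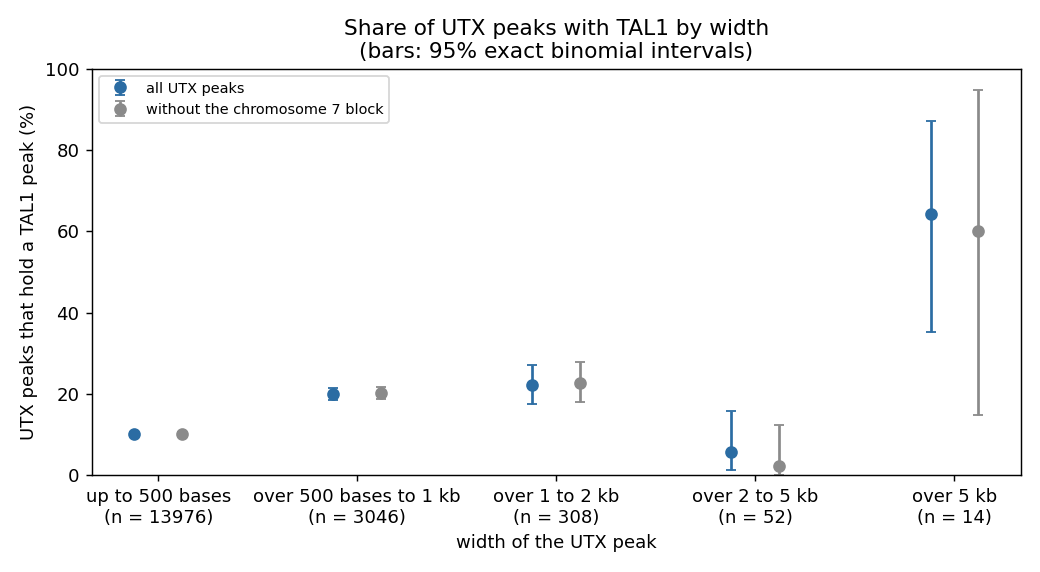
Percentage of UTX peaks that hold a TAL1 peak in 5 classes of UTX width, with 95% exact binomial intervals, for all UTX peaks (blue) and without the chromosome 7 block (grey). The share is 22.1% over 1 to 2 kb, 5.77% over 2 to 5 kb and 64.3% over 5 kb, where n is 14; longer peaks can touch TAL1 more easily.

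With UTX peaks joined across gaps of at most 1 kb, the MIR142 and MALAT1 stretches ranked 3 and 5 of 16160 stretches by covered bases, with 14375 and 9597 bases. Ranks 1 and 2 were in the chromosome 7 block and held 10 and 3 TAL1 peaks, the MIR142 stretch held 2, and rank 4, on chromosome 2, held 1. The MALAT1 stretch was thus the most covered stretch in the list with 0 TAL1 peaks, a property that is part of why it was chosen. The next 4 stretches, ranks 6 to 9 with 7054 to 4772 covered bases, also held 0, while ranks 10 and 11 held 1 each. Rank 6 lay close beside rank 4 on chromosome 2, and ranks 8 and 9 were in the chromosome 7 block.

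TAL1 was absent from the list for a long way on the lower side of NEAT1 and MALAT1, and for less on the upper side. The nearest TAL1 peak to the 5276-base peak was 139 bases wide, at 65320867 to 65321005, 49.8 kb further up the chromosome and 10.9 kb outside the window, and it lay in a UTX peak. The nearest on the lower side was at 64531859 to 64532006, 733.8 kb away. The shorter distance rests on that 1 peak, which is narrower than the TAL1 list's median of 147.5 bases. With the wider 50% of the TAL1 list the nearest TAL1 peak was 733.8 kb away. That farther peak was itself 148 bases wide, just above the median, so a small difference in width decides between the distances. Distances to the nearest TAL1 peak fell from 170.8 kb for the first UTX peak of the window to 45.5 kb for the last. With all TAL1 peaks, of the 294 UTX peaks wider than 1 kb without TAL1, 79 (26.9%) were closer to a TAL1 peak than the 5276-base peak was, and their median distance was 182.7 kb (quartiles 42.1 and 510.2 kb).

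At the edges of the windows, the first UTX peak of the chromosome 11 window, 383 bases at 65149730 to 65150112, had 113 of its bases inside. The nearest UTX peak left out there, 339 bases at 65313791 to 65314129, began 3.79 kb beyond the upper edge and had no TAL1. Beyond the upper edge of the MIR142 window, a UTX peak of 155 bases at 56456641 to 56456795 stood 6.64 kb outside without TAL1. The next TAL1 peak, 121 bases at 56465236 to 56465356, stood 15.2 kb outside and lay in a UTX peak. On the lower side of MIR142 the nearest UTX peak, 420 bases at 56230329 to 56230748, was 119.3 kb outside the window and held a TAL1 peak of 211 bases.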

How the data were processed

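The data were 2 lists of peak positions, 1 for UTX in Jurkat cells and 1 for TAL1. Both deposited lists have 3 columns, the chromosome, start (counted from 0) and end; positions are printed counted from 1. Per the submitters' processing notes, BWA 0.6.2, SAMtools 0.1.18, MACS2 2.0.10 and hg19 were used; their roles, the peak threshold and the use of the mock are not given in these sources, nor is the calling of the TAL1 list, which is taken to be on hg19 as well because 80.8% of its peaks lie in UTX peaks.

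Peaks were compared in Python 3.11.15 (numpy 2.4.6, pandas 2.3.3, scipy 1.17.1). A UTX peak held TAL1 if they shared at least 1 base. The overlap, distance and joining steps were checked on simulated intervals, with 0 wrong values over 6457 intervals, and against bedtools 2.31.1. With 1 library and no replicates, no test was made. The members, windows, motifs and alternatives were chosen with earlier results of these data known. By rule, every UTX peak wider than 1 kb, every TAL1 peak and the narrowest remaining peaks of the windows are named, and of other peaks a selection of those within 10 width ranks of the widest member; further peaks at the window edges were named after their values were seen.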

Additional observations from a re-analysis of the deposited data

How the results depend on the processing

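Of 64 values computed under other settings, 51 stayed within 1.5 times the reported count or inside its interval, and 13 did not. Widening the windows by 50 kb on each side gave 19 UTX peaks at NEAT1-MALAT1 and 8 at MIR142, and brought in 1 TAL1 peak at NEAT1-MALAT1, in 1 UTX peak, since the windows then hold more sequence. Requiring centres within 500 bases left 0 UTX peaks with TAL1 and 0 TAL1 peaks in UTX at MIR142, because TAL1 lies far from the centres of the wide UTX peaks; the centres at the widest MIR142 peak are 4.24 kb apart. With the wider 50% of the TAL1 list, the nearest TAL1 peak to the MALAT1 peak was 733.8 kb away in place of 49.8 kb. The peaks at these distances are 148 and 139 bases wide, on either side of the list's median of 147.5 bases. A limit of 2 kb in place of 1 kb left 3 wide UTX peaks at NEAT1-MALAT1, and joining across 5 kb split the MIR142 peaks into 2 groups. Trimming UTX peaks to 200 bases at their centre, chosen after seeing the data, lowered the share with TAL1 to 11.8% of those over 1 kb and to 0 of those over 5 kb. Such a trim leaves a small part of a wide peak, so TAL1 peaks outside its central 200 bases are not counted. No paired analysis was possible because neither group has a second library. With no read counts, depth sets an unknown limit on which sites count as lacking TAL1.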
